A study of Mus musculus with 16 samples.

Results

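Tumours in which cDC1s were to lack Ikbkb were set against floxed controls by RNA sequencing, over all genes that passed a filter on low counts. Ikbkb encodes IKK-beta, the kinase of the canonical NF-kB pathway. The comparison used 8 of the 16 libraries of the study, chosen by their genotype label, with 4 labelled IKKbdeltaXCR1 (Ikbkb-deleted) and 4 labelled IKKbFF (floxed controls). Of 32697 genes in the table of counts, 16040 were tested. The other 8 libraries, 4 floxed for Irf1 and 4 lacking it, entered the same fit so that all groups shared one estimate of the spread. All 8 libraries of the comparison came from tumours of YUMM1.7, a mouse melanoma cell line, engrafted into female mice and grown to between 200 and 350 mm3, with no other treatment. The series describes the material as type 1 conventional dendritic cells (cDC1s) sorted from these tumours, and the labels name the deletion after XCR1, a chemokine receptor of cDC1s. The labels used here do not state which exons were floxed, the driver of the recombination, the age of the mice, or whether each library came from its own animal. A p-value therefore measures the spread between these libraries, which may be technical in part.

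IKK-beta acts in a complex with IKK-alpha, the product of Chuk, and the scaffold NEMO, the product of Ikbkg. Signals from Toll-like receptors, TNF receptors and CD40 lead this complex to phosphorylate IkB proteins, whose breakdown frees NF-kB dimers to enter the nucleus. NF-kB then drives cytokines, survival factors and its own inhibitors, among them Nfkbia and Tnfaip3, and in dendritic cells the maturation programme of CCR7, CD40 and IL-12. Irf1, which interferon induces, is also a known NF-kB target. cDC1s take up dead cells and cross-present their antigens to CD8 T cells.

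The libraries held 16478671 to 23271467 counts and differed widely in their content of cDC1 RNA. Values are given as CPM, the usual scaling of counts to the TMM-adjusted library total, in the order of replicates 1 to 4 wherever 4 values stand together. The 32 cDC1 identity genes summed to 3322, 2474, 13940 and 1965 CPM in the controls and 13360, 4478, 2868 and 2458 CPM in the deleted libraries. Control replicate 3 and deleted replicate 1 were thus the libraries richest in cDC1 RNA, and they stood apart from the other 6 on the first principal component of 9444 genes, which took 42.3% of the variance. The markers of cDC1s were present in all 8 libraries, with Xcr1 at 74.2, 51.9, 213 and 20.6 CPM in the controls and 318, 66.04, 53.6 and 28.2 CPM in the deleted libraries. The sum for macrophages and monocytes was 10180, 11410, 9630 and 11950 CPM in the controls and 4128, 8863, 14460 and 9304 CPM in the deleted libraries, so the cDC1 sum exceeded the macrophage sum in 2 libraries, control replicate 3 and deleted replicate 1. These lists hold different genes at unlike levels, so the order of their sums gives no share of cells. Spp1 alone held 3854 to 4852 CPM of the macrophage sum in the controls and 2264 to 6128 CPM in the deleted libraries. In bulk RNA, fewer cells of a type and less RNA per cell cannot be told apart. Results below are given with all libraries, and many of them again without 1 library where leaving it out moved the value. The plot of list medians gives each list with and without control replicate 3.

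**Figure D1:**
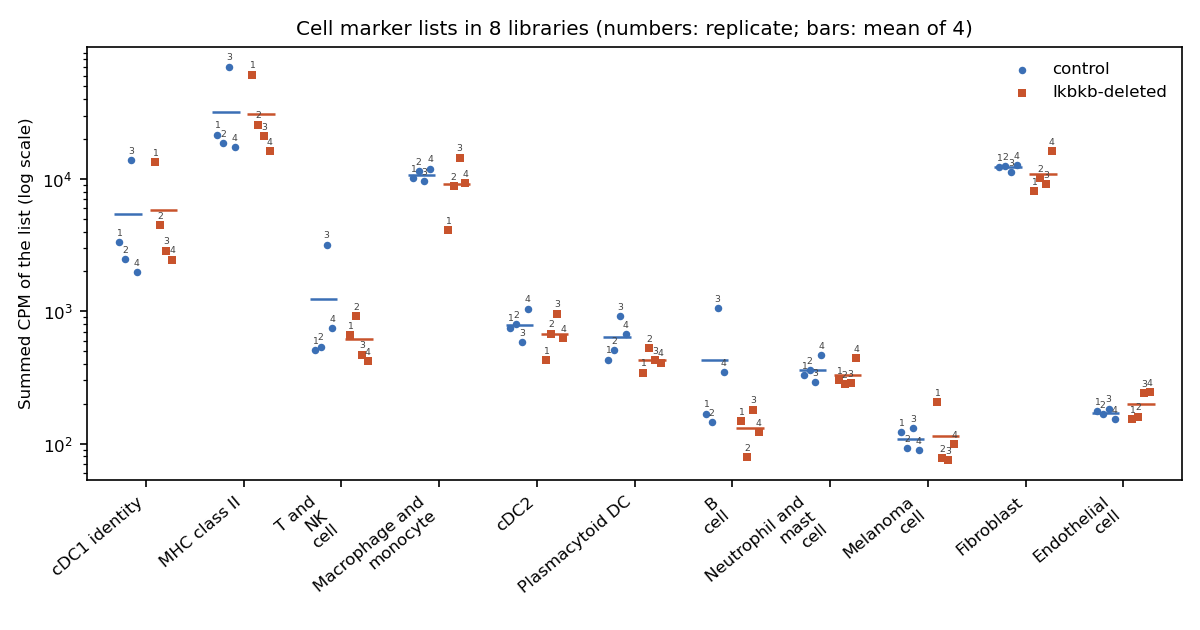
Summed CPM of cell marker lists in each library (log scale). Circles are the 4 controls, squares the 4 Ikbkb-deleted libraries, digits the replicate and bars the mean of 4. Control replicate 3 and deleted replicate 1 lie above the other 6 libraries for cDC1 identity and MHC class II genes, and control replicate 3 also for T and NK cell and B cell markers.

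Ikbkb itself (ENSMUSG00000031537, chromosome 8, 22659212 to 22706589, minus strand, mm10) was lower on average in the libraries labelled deleted, but the groups overlapped. It measured 45.1, 44.5, 121 and 48.6 CPM in the controls and 46.3, 28.5, 37.1 and 37.8 CPM in the deleted libraries. Control replicate 3 held the highest value, and deleted replicate 1 lay inside the range of the other 3 controls. The means were 64.8 ± 37.4 CPM in the controls and 37.4 ± 7.25 CPM in the deleted libraries (SD, n = 4 each), which is -0.79 (SE 0.33) as a log2 fold change, with an adjusted p of 0.988 in edgeR. Over all 70 labellings, the exact permutation test (two-sided, on the difference of means) gave p = 0.0857, where the smallest that the design allows is 0.0286. The log2 fold change was -0.30 without control replicate 3 and -0.42 without both cDC1-rich libraries. Gene-level counts include reads from exons outside the deleted part and from cells without the deletion, so these values are a limited check of the labels.

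The partners of IKK-beta showed no difference of that size. Chuk measured 62.1, 34.9, 97.9 and 27.1 CPM in the controls and 86.4, 52.3, 63.05 and 30.7 CPM in the deleted libraries, with an exact permutation p of 0.914. Ikbkg measured 46.3, 82.8, 80.8 and 54.98 CPM in the controls and 86.5, 79.8, 32.1 and 77.6 CPM in the deleted libraries, with an exact permutation p of 0.886. The groups overlapped widely for both genes. Per kilobase of annotated exons, the controls averaged 3.39 CPM for Ikbkb, 10.9 for Chuk and 8.16 for Ikbkg, and the deleted libraries 1.96, 11.4 and 8.51. By this measure of level Ikbkb was the lowest of the 3 genes of the complex in both groups, although its annotated exons include long alternative forms that dilute the value.

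Across the transcriptome no gene passed the threshold of an adjusted p under 0.05 in edgeR, so 0 of 16040 genes were called (0%), and the adjusted p was 0.7814 or more. Unadjusted, 769 of the 16040 genes lay under 0.05, 297 with a higher and 472 with a lower mean in the deleted libraries. A threshold of 0.05 marks about 1 in 20 genes where nothing differs. Without control replicate 3 the counts were 527 higher and 476 lower of 16667 genes tested. DESeq2 called 38 of 15988 genes (0.238%), 9 higher and 29 lower, and limma voom called 0. A negative log2 fold change was found in 8365 genes (52.2%), a share that became 48.6% without control replicate 3, and the median over all genes was -0.02. The 4 deleted libraries lay wholly below the 4 controls for 152 genes (0.948%) and wholly above them for 121 (0.754%). Of the 70 labellings, 1 puts all deleted libraries below the controls and 1 puts them all above. Labels without any effect would thus separate on average about 1 gene in 70 in each direction, and neither share exceeded this. These shares are the background against which the members below are read. The genes described next are the 12 on each side with the smallest p among those that did not overlap and had a mean log2 CPM of at least 3, so their lack of overlap was part of how they were chosen.

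Kdm4b, a demethylase of histone H3 lysines, had the smallest p of the lower genes. It measured 19.97, 26.9, 39.3 and 36.05 CPM in the controls and 9.04, 11.8, 9.29 and 9.27 CPM in the deleted libraries. Deleted replicate 2 stood above the other deleted libraries, whose values lay close together. All 4 lay below the lowest control, a condition of the choice, and the log2 fold change was -1.63 (SE 0.31). Lats2, a kinase of the Hippo pathway, measured 21.2, 11.3, 14.3 and 8.84 CPM in the controls and 7.35, 3.83, 7.06 and 3.54 CPM in the deleted libraries, with a log2 fold change of -1.35 (SE 0.31). Nucb2, which encodes the calcium-binding protein nucleobindin 2, measured 42.4, 40.4, 45.7 and 50.6 CPM in the controls and 27.3, 26.7, 27.4 and 26.7 CPM in the deleted libraries. Its deleted libraries spanned less than 1 CPM and its controls about 10 CPM, with a log2 fold change of -0.73 (SE 0.17). DESeq2 called these 3 genes, and edgeR gave adjusted p = 0.781 for Kdm4b and 0.865 for Lats2 and for Nucb2. Leaving out any 1 library kept the log2 fold change of Kdm4b between -1.81 and -1.497. Lats2 ranged from -1.53 to -1.08 and Nucb2 from -0.78 to -0.67 in the same fits. The lack of overlap by which these 3 genes were chosen fixed the sign in advance.

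Ddx58 and Mndal, which interferon induces, were also among the 12 lower genes. Ddx58 encodes RIG-I, the cytosolic sensor of viral RNA, and measured 38.4, 32.8, 62.2 and 43.3 CPM in the controls and 21.6, 29.8, 24.7 and 21.7 CPM in the deleted libraries, with a log2 fold change of -0.85 (SE 0.24). Mndal, an interferon-inducible gene of the IFI200 family whose close paralogs can share reads, measured 28.6, 26.3, 56.8 and 36.8 CPM in the controls and 14.5, 21.5, 13.8 and 12.01 CPM in the deleted libraries, with a log2 fold change of -1.26 (SE 0.33). Control replicate 3 was the highest library for both, and without it the log2 fold changes were -0.65 and -0.99. Each of the other 3 controls also exceeded every deleted library for both genes, which follows from how the genes were chosen.

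The other 7 lower genes are given by their range. The matrix protein gene Spon2 ranged over 93.9 to 116 CPM in the controls and 22.8 to 85.9 CPM in the deleted libraries (-1.002, SE 0.30 on the log2 scale), and Dpt, which encodes dermatopontin, over 43.6 to 95.1 CPM in the controls and 18.3 to 38.02 CPM in the deleted libraries (-1.03, SE 0.31). C1s1, the complement protease C1s, ranged over 21.3 to 44.5 CPM in the controls and 5.62 to 19.5 CPM in the deleted libraries (-1.18, SE 0.35). Synpo2, an actin-bundling protein gene of muscle-like cells, ranged over 26.7 to 41.3 CPM in the controls and 8.37 to 20.7 CPM in the deleted libraries (-1.19, SE 0.31). These 4 are genes of stromal cells more than of dendritic cells, and the 19 fibroblast markers summed to 12320, 12520, 11250 and 12720 CPM in the controls and 8050, 10170, 9111 and 16210 CPM in the deleted libraries. The fibroblast sum was lowest in deleted replicates 1 and 3 and highest in deleted replicate 4, and its part in these values was not tested. Without both cDC1-rich libraries the log2 fold change of C1s1 was -0.66 and that of Dpt -0.55. Spon2 and Synpo2 stayed near their values, at -0.98 and -1.19. The remaining lower genes were Flcn, a regulator of growth signalling at the lysosome (31.9 to 55.9 CPM in the controls and 17.9 to 31.9 CPM in the deleted libraries, log2 fold change -0.87, SE 0.25), the lysosomal nuclease gene Pld3 (97.01 to 152 CPM in the controls and 73.4 to 96.8 CPM in the deleted libraries, -0.59, SE 0.17) and Phf21a, a reader of unmethylated histone H3 (11.6 to 17 CPM in the controls and 5.99 to 8.86 CPM in the deleted libraries, -0.89, SE 0.28).

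Slc8a1, the sodium-calcium exchanger, had the largest log2 fold change of the 12 higher genes. It measured 2.92, 4.72, 7.94 and 1.31 CPM in the controls and 27.3, 11.2, 31.8 and 14.2 CPM in the deleted libraries, with a log2 fold change of 2.32 (SE 0.60). Every deleted library exceeded the highest control, and DESeq2 called the gene while edgeR gave adjusted p = 0.945. Cldn1, a tight-junction claudin, measured 20.6, 16.03, 14.4 and 17.4 CPM in the controls and 252, 22.1, 33.96 and 23.9 CPM in the deleted libraries, and its log2 fold change of 2.28 (SE 0.73) came mostly from deleted replicate 1, without which it was 0.64. Gstcd, a glutathione transferase-like gene, measured 5.58, 4.97, 5.36 and 5.11 CPM in the controls and 16.7, 8.02, 19.1 and 11.01 CPM in the deleted libraries, with a log2 fold change of 1.38 (SE 0.38). Its controls lay within 1 CPM of each other.

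The other 9 higher genes have unlike roles. E2f3, a transcription factor of the cell cycle, measured 1.86, 3.96, 10.1 and 6.79 CPM in the controls and 12.03, 12.7, 16.2 and 16.5 CPM in the deleted libraries (1.34, SE 0.43 on the log2 scale). Topbp1, a scaffold of the DNA replication checkpoint, ranged over 33.3 to 43.1 CPM in the controls and 47.6 to 81.2 CPM in the deleted libraries (0.70, SE 0.23). Urb1, a factor of ribosome assembly, ranged over 3.67 to 13.5 CPM in the controls and 19.9 to 32.9 CPM in the deleted libraries (1.26, SE 0.41), and Gatc, which acts in mitochondrial translation, over 17.8 to 33.1 CPM in the controls and 33.7 to 46.1 CPM in the deleted libraries (0.72, SE 0.20). All 4 genes kept a higher mean in the deleted libraries whichever library was left out, which their choice for lack of overlap fixed in advance. Further higher genes were Usp10, a deubiquitinase (66.9 to 78.95 CPM in the controls and 82.2 to 132 CPM in the deleted libraries, 0.51, SE 0.16), Zyg11b, an adaptor of a ubiquitin ligase (16.9 to 25.9 CPM in the controls and 30.1 to 43.3 CPM in the deleted libraries, 0.74, SE 0.20), Tram2, of the endoplasmic reticulum (9.12 to 18.7 CPM in the controls and 22.2 to 32.7 CPM in the deleted libraries, 0.94, SE 0.29), and the kinesin motor gene Kif3c (5.73 to 9.79 CPM in the controls and 12 to 18.04 CPM in the deleted libraries, 0.97, SE 0.32). The zinc-finger gene Zkscan1 ranged over 11.9 to 15.4 CPM in the controls and 16.7 to 31.7 CPM in the deleted libraries (0.85, SE 0.28). None of these passed in edgeR, with adjusted p of 0.945 to 0.973 over the 12 higher genes.

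**Figure D2:**
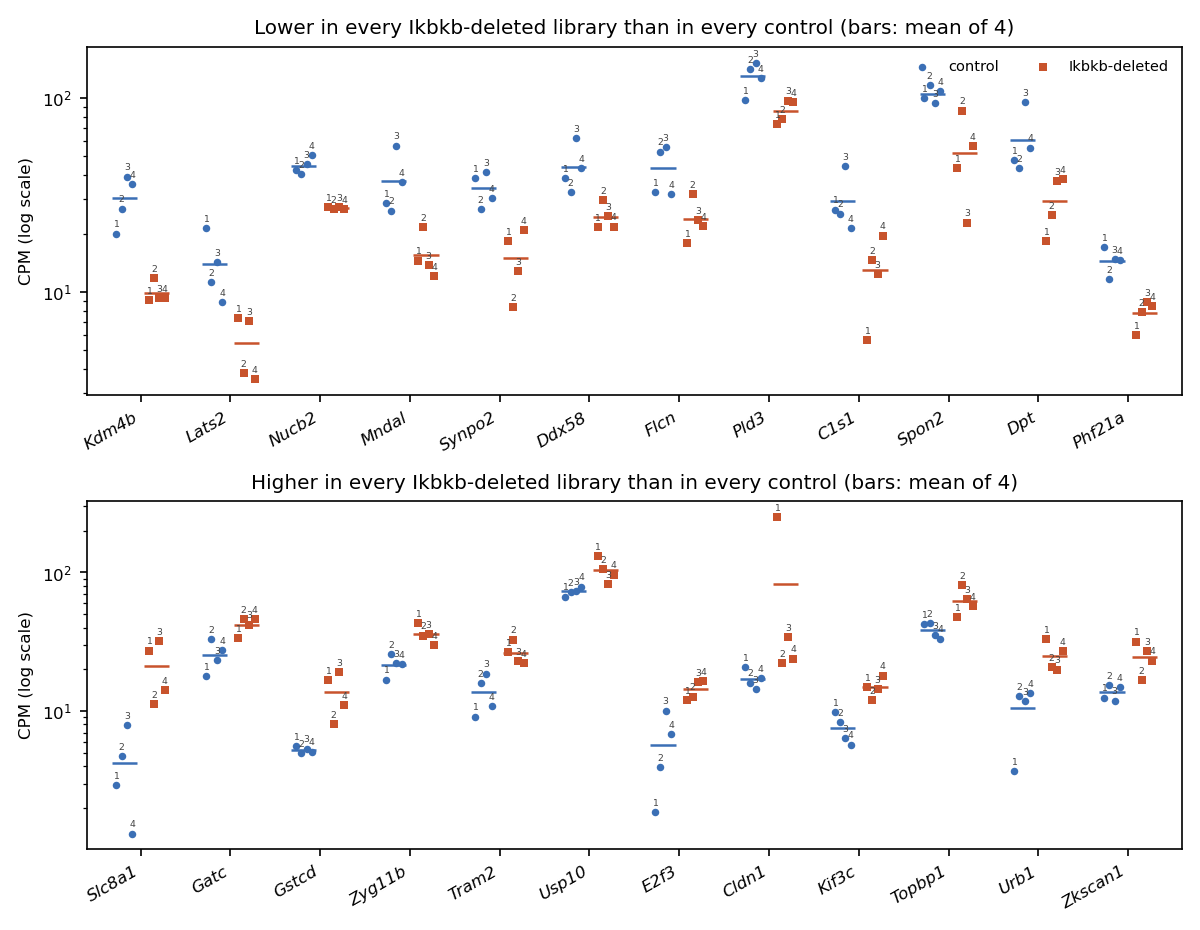
CPM in each library (log scale) of the 12 lower and 12 higher genes with the smallest p among genes whose groups did not overlap. Circles are controls, squares Ikbkb-deleted libraries, digits the replicate and bars the mean of 4. Separation between groups was a condition of the choice, and deleted replicate 1 lies far above the others for Cldn1 at 252 CPM.

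The NF-kB pathway was read in order from receptor to target. None of its 4 lists held a gene called by edgeR or one whose groups did not overlap. Over all genes 0.948% lay wholly lower and 0.754% wholly higher. The IKK complex with its upstream kinases and adaptors had 37 tested genes, 27 of them with a lower deleted mean (median log2 fold change -0.19). Ripk1, the adaptor kinase below TNF receptor 1, measured 59.4, 48.7, 80.9 and 69.4 CPM in the controls and 57.8, 54.4, 37.6 and 46.3 CPM in the deleted libraries (-0.40, SE 0.21 on the log2 scale). Map3k8, the kinase TPL2, measured 24.3, 18.3, 47.04 and 9.65 CPM in the controls and 19.6, 9.78, 13.1 and 10.4 CPM in the deleted libraries (-0.91, SE 0.46, -0.40 without control replicate 3). Traf1, an adaptor that is itself an NF-kB target, measured 166, 124, 684 and 109.8 CPM in the controls and 282, 194, 90.2 and 108 CPM in the deleted libraries. Control replicate 3 was the highest library for all 3 genes, and deleted replicate 1, the other cDC1-rich library, stood next for Traf1. The median of the list was 0.12 when control replicate 3 was left out.

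The 5 NF-kB subunit genes were detected in every library. Relb, a subunit of the non-canonical arm, measured 97.5, 84.2, 422 and 83.5 CPM in the controls and 203, 134, 66.9 and 56.4 CPM in the deleted libraries. Nfkb2, which encodes p100 and p52, measured 87.3, 81.8, 320.0 and 75.3 CPM in the controls and 117, 92.8, 59.8 and 89.9 CPM in the deleted libraries, with a log2 fold change of -0.65 (SE 0.40). Rela, the main subunit of the canonical arm, measured 84.5, 87.6, 178 and 112 CPM in the controls and 149, 95.9, 108 and 114 CPM in the deleted libraries, Nfkb1 35.4, 44.2, 62.6 and 40.97 CPM in the controls and 73.6, 31.1, 37.5 and 27.6 CPM in the deleted libraries and Rel 67.03, 57.01, 249 and 18.5 CPM in the controls and 136, 46.1, 36.99 and 30.7 CPM in the deleted libraries. Of the 5 genes 4 had a lower deleted mean, with a median log2 fold change of -0.58, and 0 of 5 had one without control replicate 3, where the median was 0.29. Leaving out both cDC1-rich libraries gave -0.05, with 4 of 5 lower. The sign for the subunits thus changed when control replicate 3 alone was left out. Nfkb2 went to 0.14 in that fit and to -0.01 without both libraries.

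Inhibitors and feedback genes of NF-kB followed the same pattern. Of 16 tested genes 14 had a lower mean (median -0.34), and 7 of 16 without control replicate 3 (0.08). Nfkbia, which encodes IkB-alpha, measured 775, 814, 1337 and 566 CPM in the controls and 910.1, 824, 741 and 630.2 CPM in the deleted libraries. Tnfaip3, the ubiquitin-editing enzyme A20, measured 198, 195, 399.5 and 139 CPM in the controls and 191, 157, 208 and 81.5 CPM in the deleted libraries. Deleted replicates 1, 2 and 3 lay within the span of the controls for both. Bcl3, a nuclear IkB protein, measured 38.8, 27.5, 81.6 and 48.5 CPM in the controls and 30.6, 46.1, 24.1 and 33.4 CPM in the deleted libraries (-0.55, SE 0.29 on the log2 scale, -0.20 without control replicate 3). Otud7b, a deubiquitinase of the non-canonical arm, measured 14.1, 36.6, 13.3 and 24.5 CPM in the controls and 11.8, 15.3, 9.66 and 17.7 CPM in the deleted libraries (-0.70, SE 0.33), with control replicate 2 the highest library, without which it was -0.36, and control replicate 3 the lowest control.

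Among 39 tested NF-kB target genes 32 had a lower deleted mean, with a median of -0.31. Cflar, which encodes the caspase-8 inhibitor c-FLIP, measured 42.4, 31.2, 115 and 31.7 CPM in the controls and 33.9, 35.6, 32.8 and 20.3 CPM in the deleted libraries, with a log2 fold change of -0.85 (SE 0.36). Irf1 measured 392, 271, 892 and 296 CPM in the controls and 343, 384, 228 and 225 CPM in the deleted libraries, with a log2 fold change of -0.65 (SE 0.40) and an exact permutation p of 0.343. Il1b, which encodes IL-1 beta, measured 383, 364, 1780 and 231 CPM in the controls and 1176, 384, 393 and 267 CPM in the deleted libraries. Il12b, the p40 chain of IL-12, measured 308, 123, 817 and 113 CPM in the controls and 450.0, 206, 103 and 73.5 CPM in the deleted libraries. For both, the cDC1-rich library of each group was its highest. Ccl5 and Tnf, other cytokine targets, did not have that order, with Tnf at 0, 11.9, 7.94 and 1.99 CPM in the controls and 8.14, 3.18, 4.03 and 4.68 CPM in the deleted libraries. Without control replicate 3, 14 of the 39 genes had a lower mean, the median was 0.12, and Cflar and Irf1 stood at -0.20 and -0.12.

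**Figure D3:**
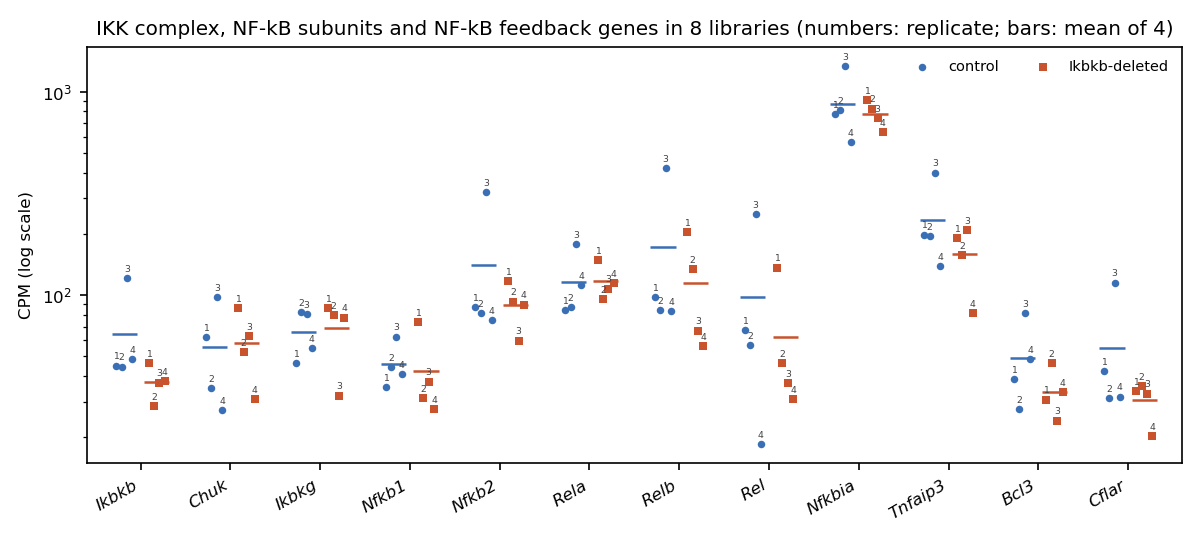
CPM in each library (log scale) of the genes of the IKK complex, the NF-kB subunits and NF-kB feedback and target genes. Circles are controls, squares Ikbkb-deleted libraries, digits the replicate and bars the mean of 4. Control replicate 3 is the highest library for 10 of the 12 genes, all but Ikbkg and Nfkb1, and the groups overlap for each gene.

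Interferon-stimulated genes had the most one-sided means of the pathway lists. Of 51 tested genes inducible by type I interferon, 50 had a lower deleted mean, at a median log2 fold change of -0.76 against -0.02 over all genes. The groups did not overlap for 2 of the 51, beside 0.948% of all genes, and 0 were called. These were Ddx58 and the Schlafen gene Slfn8, which was named after its values were seen and ranged over 16.5 to 32.2 CPM in the controls and 7.64 to 15.9 CPM in the deleted libraries. Of 36 interferon-gamma-inducible genes 33 had a lower mean, at a median of -0.72, and 1, Gbp7, did not overlap. Leaving out control replicate 3 gave 35 of 51 and 23 of 36, and medians of -0.21 and -0.33. Without both cDC1-rich libraries they were 44 of 51 and 25 of 36, with medians of -0.25 and -0.20. A cDC1 score as a covariate left the medians at -0.73 and -0.68. The cDC1 sum had similar means in both groups (5426 CPM in controls, 5790 in deleted), so this covariate could move them little. With limma voom and quality weights they were -0.28 and -0.34.

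The bases before the start of some of these genes are shown because they hold the binding motifs by which the genes can be grouped without their measured values. The interferon-stimulated response element (ISRE), which IRF9 and other IRF factors bind, was searched as GAAANNGAAA on both strands in the 250 bases before the RefSeq start (GRCm38.p6). Capitals mark the matches, each run is read 5′ to 3′ on the strand of the gene, and the matches of Isg15 overlap each other.
Ifit1, chr19:34640765-34640833, plus strand: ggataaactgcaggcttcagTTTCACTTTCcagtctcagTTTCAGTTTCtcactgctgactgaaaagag
Ifit3, chr19:34583353-34583436, plus strand: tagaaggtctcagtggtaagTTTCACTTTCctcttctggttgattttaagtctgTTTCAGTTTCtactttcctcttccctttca
Isg15, chr4:156200855-156200916, minus strand: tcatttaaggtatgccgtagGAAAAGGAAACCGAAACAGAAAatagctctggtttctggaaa
The first 2 genes carry the element as its reverse complement. Of 11221 tested genes with a promoter entry, 391 held a match (3.48%). Matches were found in 15 of 38 type I genes (39.5%) and in 12 of 25 interferon-gamma-inducible genes (48%), and in 0 of 30 NF-kB target genes. The kB consensus, searched by its usual degenerate form on both strands of the same window, was found in 10.6% of all genes, in 10 of 30 NF-kB targets (33.3%) and in 7 of 14 feedback genes (50%). It was also found in 6 of 38 type I genes (15.8%) and in 5 of 25 interferon-gamma-inducible genes (20%). It stands directly before the start of Irf1 and of Nfkbia, again in capitals, and in Irf1 the same bases match on both strands.
Irf1, chr11:53769981-53770013, plus strand: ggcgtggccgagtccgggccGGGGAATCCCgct
Nfkbia, chr12:55492648-55492696, minus strand: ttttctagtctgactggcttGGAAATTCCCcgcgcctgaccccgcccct
Grouping the genes by these letters alone gave a smaller difference than the lists did. Of the 391 genes with an ISRE match 61.6% had a lower deleted mean (median -0.10), against 51.6% of the 10830 without one (-0.01). The shares were 52.7% and 46.7% when control replicate 3 was left out. Of the 1189 genes with a kB match 55.6% had a lower mean (-0.05), against 51.6% of the 10032 without one, and the shares were 47.7% and 46.8% without control replicate 3. A match is a string of letters in a window and not a measured binding site.

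The IFIT genes encode proteins that bind viral RNA. Ifit1 measured 82.5, 114, 282 and 151 CPM in the controls and 36.98, 126, 33.4 and 65.5 CPM in the deleted libraries, with a log2 fold change of -1.26 (SE 0.44). Ifit3 measured 42.7, 76.3, 199 and 94.2 CPM in the controls and 19.5, 63.2, 29.2 and 29 CPM in the deleted libraries (-1.55, SE 0.46 on the log2 scale, edgeR adjusted p = 0.966), and its near-identical copy Ifit3b, where reads of both may be mixed, measured 17.2, 16.99, 58.4 and 36.8 CPM in the controls and 6.09, 18.1, 8.33 and 10.5 CPM in the deleted libraries (-1.59, SE 0.43, adjusted p = 0.945). Deleted replicate 1 was at or near the bottom for all 3 although it was rich in cDC1 RNA, and deleted replicate 2 was the deleted library that reached the range of the controls. Without control replicate 3 the log2 fold changes were -0.83, -1.02 and -1.15. Ifit2, by contrast, was high in both cDC1-rich libraries, at 48.6, 49.4, 164 and 49.2 CPM in the controls and 97.8, 77.5, 24.9 and 27.9 CPM in the deleted libraries.

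Isg15, which encodes a ubiquitin-like modifier, measured 90.6, 131, 425 and 211 CPM in the controls and 72.5, 202, 74.6 and 69.01 CPM in the deleted libraries, with a log2 fold change of -1.04 (SE 0.51). Rsad2, the antiviral enzyme viperin, measured 17.98, 38.9, 163 and 64.8 CPM in the controls and 46.1, 35.6, 17.8 and 33.7 CPM in the deleted libraries (-1.10, SE 0.52). Usp18, the protease that removes ISG15 and dampens interferon receptor signalling, measured 91.9, 117, 440.0 and 94.8 CPM in the controls and 138, 159.5, 42.7 and 47.3 CPM in the deleted libraries (-0.94, SE 0.51). All 3 were highest in control replicate 3, by more than 2-fold over the next control in Rsad2 and Usp18, and without it the log2 fold changes were -0.47, -0.30 and -0.08.

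Transcription factors of the interferon response had the same highest library. Irf7, the amplifier of type I interferon production, measured 140.0, 219, 1034 and 253 CPM in the controls and 296, 264, 72.3 and 119 CPM in the deleted libraries (-1.13, SE 0.56 on the log2 scale). Irf9, the DNA-binding part of the factor that type I interferon activates, measured 76.4, 87.8, 288 and 134 CPM in the controls and 109, 108, 51 and 77.5 CPM in the deleted libraries (-0.76, SE 0.36). Deleted replicates 3 and 4 were the lowest 2 libraries for Irf7, and deleted replicates 1 and 2 lay above control replicates 1 and 2 for both genes. Without control replicate 3 the log2 fold changes were -0.13 and -0.21. The receptors and kinases that feed this response, with the interferons and JAK-STAT genes, counted 20 lower of 24 (median -0.23), and 4 of 24 without control replicate 3. Ifnb1 was under the filter, with 0 to 13 counts a library, and Ifng, which T and NK cells make, measured 1.73, 4.51, 23.97 and 3.74 CPM in the controls and 0.683, 3.73, 0.743 and 3.14 CPM in the deleted libraries.

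Guanylate-binding proteins and immunity-related GTPases, which attack vacuoles of microbes, held the interferon-gamma gene that did not overlap. Gbp7 measured 40.2, 17.1, 56.2 and 43.3 CPM in the controls and 11.7, 16.6, 13.8 and 8.92 CPM in the deleted libraries, which is -1.62 (SE 0.52) as a log2 fold change, with an adjusted p of 0.973 in edgeR, and -1.40 without control replicate 3. Gbp3 measured 70.3, 78.6, 187 and 131 CPM in the controls and 31.7, 94.4, 37.4 and 38.9 CPM in the deleted libraries (-1.21, SE 0.46), and Irgm2 57.7, 40.9, 85.1 and 79.1 CPM in the controls and 31.1, 67.5, 23.6 and 26.7 CPM in the deleted libraries (-0.82, SE 0.34). In both genes deleted replicate 2 reached the controls, and the other 3 deleted libraries lay below all 4. GBP genes are close paralogs, so counts of single members are uncertain. Cxcl9 and Cxcl10, ligands of CXCR3 on T cells, were highest in control replicate 3. Cxcl9 measured 46.3, 49.1, 138 and 85.98 CPM in the controls and 45.02, 76.2, 23.6 and 38.4 CPM in the deleted libraries. Cxcl10 measured 116, 129.5, 381 and 222 CPM in the controls and 57.1, 212, 91.4 and 115 CPM in the deleted libraries.

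**Figure D4:**
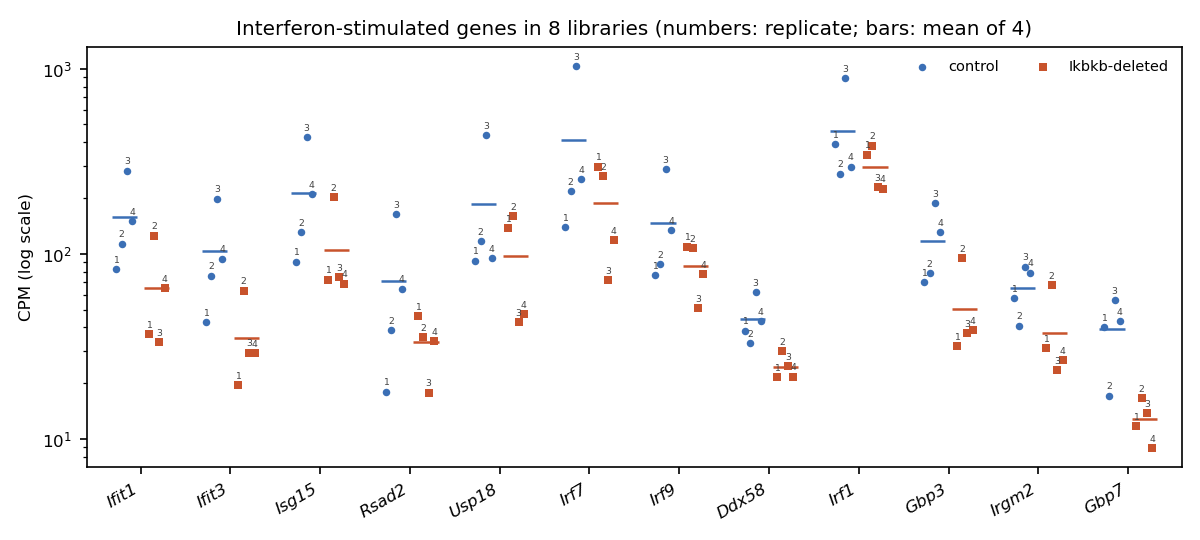
CPM in each library (log scale) of interferon-stimulated genes and Irf1. Circles are controls, squares Ikbkb-deleted libraries, digits the replicate and bars the mean of 4. Control replicate 3 is the highest library for each of the 12 genes, and the groups separate for Ddx58 and Gbp7.

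The summed markers of T and NK cells were highest in control replicate 3, as were the 12 plotted genes of the interferon response. All 28 tested members had a lower deleted mean (median -0.94), and their sum was 511, 539.6, 3183 and 747 CPM in the controls and 663, 925, 469.9 and 423 CPM in the deleted libraries. Gzmb, the cytotoxic protease granzyme B, measured 26.5, 35.96, 452 and 74.8 CPM in the controls and 22.4, 65.8, 24.4 and 15.4 CPM in the deleted libraries (-2.20, SE 0.86 on the log2 scale), and Cd3e, a chain of the T cell receptor complex, 23.6, 18.5, 85.9 and 33.2 CPM in the controls and 14.5, 43.05, 12.7 and 13.9 CPM in the deleted libraries. The groups did not overlap for 1 of the 28, beside 0.948% of all genes. It was the granzyme gene Gzma, named after its values were seen, at 23.3, 17.5, 132 and 27.1 CPM in the controls and 12.97, 10.3, 10.4 and 15.9 CPM in the deleted libraries. Control replicate 3 had the highest sum of the 8 libraries. Without it 15 of 28 had a lower mean, the median was -0.02 and the log2 fold change of Gzmb was -0.53. Interferon-gamma comes from these cells, and their part in the values of the interferon genes was not tested.

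Genes of cDC1 identity had a small median change with all libraries in the fit. Of 32 tested genes 12 had a lower mean and 20 a higher one (median 0.06). Irf8, the factor on which the lineage depends, measured 545, 376, 2511 and 278 CPM in the controls and 2268, 744, 379 and 394 CPM in the deleted libraries, Batf3, its partner, 14.2, 9.28, 57.5 and 7.596 CPM in the controls and 41.7, 17.4, 7.59 and 8.67 CPM in the deleted libraries, and Clec9a, the receptor for dead cells, 7.48, 5.68, 67.6 and 13.1 CPM in the controls and 50.6, 11.8, 10.7 and 8.42 CPM in the deleted libraries. Each was more than 2-fold higher in control replicate 3 and deleted replicate 1 than in any of the other 6 libraries, which overlapped between groups. The median was 1.21 without control replicate 3, where 0 of 32 had a lower mean, and -0.80 without deleted replicate 1. Without both libraries 6 of 32 had a lower mean (median 0.28), and limma voom with quality weights gave 2 of 32 (0.51). The sign and size of the cDC1 median thus depended on which of these 2 libraries was in the fit.

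DC maturation and migration genes had a lower mean in 35 of 37 cases (median -0.50), and in 7 of 37 without control replicate 3 (0.31). Without control replicate 3 and deleted replicate 1 it was 22 of 37 (-0.05). Ccr7, the receptor that guides mature dendritic cells to lymph nodes, measured 814, 506, 3670 and 412 CPM in the controls and 2007, 878, 534 and 456 CPM in the deleted libraries. Cd40, the receptor for T cell help, measured 106, 66.8, 403 and 70.1 CPM in the controls and 180.2, 126, 51.1 and 51.7 CPM in the deleted libraries, and Fscn1, the actin bundler of mature dendritic cells, 535, 367, 1368 and 400.3 CPM in the controls and 666, 431, 368 and 422 CPM in the deleted libraries. Deleted replicate 1 was the highest deleted library for all 3 and lay below control replicate 3 in each. The costimulatory ligand gene Cd80 measured 22.7, 15.4, 65.8 and 16.5 CPM in the controls and 27.1, 7.06, 15.8 and 6.53 CPM in the deleted libraries (-1.09, SE 0.52 on the log2 scale, -0.37 without control replicate 3). Cd86, its sister ligand, measured 125, 87.5, 412 and 77.3 CPM in the controls and 349, 160.3, 122 and 56.6 CPM in the deleted libraries. Il15, which sustains CD8 T and NK cells, measured 24.8, 26.7, 46.2 and 32.6 CPM in the controls and 14.2, 18.4, 26.5 and 21.6 CPM in the deleted libraries (-0.69, SE 0.32), with deleted replicate 1 the lowest library.

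Of 42 tested chemokine and cytokine genes 34 had a lower mean (median -0.28). The groups did not overlap for 2, both lower, beside 0.948% of all genes. Il1rn, the secreted blocker of the IL-1 receptor, measured 38.1, 35.2, 77.2 and 42.3 CPM in the controls and 12.7, 31.2, 19.3 and 18.2 CPM in the deleted libraries. Its 4 deleted libraries lay below the lowest control, with a log2 fold change of -1.24 (SE 0.43) that was -0.93 without control replicate 3 and an adjusted p of 0.973 in edgeR. Tnfsf10, the death ligand TRAIL, was scarce, at 7.08, 4.82, 14.3 and 8.405 CPM in the controls and 4.25, 2.27, 2.92 and 0.0498 CPM in the deleted libraries (-1.86, SE 0.84). Ccl5, which attracts T cells, measured 72.9, 71.97, 261 and 78.4 CPM in the controls and 65.5, 97.6, 44.9 and 38.7 CPM in the deleted libraries, and Ccl22, which attracts regulatory T cells, 472, 294, 1042 and 274 CPM in the controls and 714, 381, 235 and 180.3 CPM in the deleted libraries. With control replicate 3 left out, the median was -0.09 with 26 of 42 lower.

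Antigen presentation was read by class. Of 27 genes of MHC class I and peptide loading 22 had a lower mean (median -0.31), and 9 of 27 without control replicate 3 (0.06). Without control replicate 3 and deleted replicate 1 it was 17 of 27 (-0.07). B2m, the light chain of class I, measured 2864, 3118, 4456 and 2636 CPM in the controls and 1952, 3359, 1807 and 2067 CPM in the deleted libraries, with a log2 fold change of -0.51 (SE 0.27) that was -0.33 without control replicate 3. Deleted replicates 1, 3 and 4 lay below all controls, and deleted replicate 2 exceeded 3 of them. H2-Q4, a non-classical class I gene with close paralogs, measured 14.6, 13.5, 75 and 16.8 CPM in the controls and 8.67, 18.9, 8.17 and 14 CPM in the deleted libraries (-1.27, SE 0.57, -0.27 without control replicate 3). MHC class II genes had a median of -0.03, with 12 of 21 lower. The median was 0.93 without control replicate 3 (7 of 21 lower) and -0.55 without deleted replicate 1 (18 of 21). Ciita, their master regulator, measured 30.3, 19.4, 112 and 16.9 CPM in the controls and 144, 44.6, 38.5 and 24.7 CPM in the deleted libraries, with the cDC1-rich library of each group its highest. Lgmn, a protease of this list, was lowest in deleted replicate 1, at 393, 433, 478 and 400.0 CPM in the controls and 221, 293, 404 and 316 CPM in the deleted libraries.

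Innate sensors were mostly lower in mean, and the groups overlapped for each tested gene of the pattern recognition list. Ddx58, counted above with the type I genes, is not on that list. Of 26 pattern recognition genes 20 had a lower mean (median -0.36, -0.05 without control replicate 3). Without control replicate 3 and deleted replicate 1 it was 19 of 26 (-0.23). Tlr4, the receptor for endotoxin, measured 56.01, 65.8, 39.1 and 42.96 CPM in the controls and 29.3, 13.8, 39.5 and 32.7 CPM in the deleted libraries (-0.82, SE 0.29 on the log2 scale). Control replicate 3 was its lowest control, and deleted replicate 3 exceeded it. Tlr3, a sensor of double-stranded RNA that cDC1s express highly, measured 47.2, 31.8, 77.5 and 19.5 CPM in the controls and 200.0, 34.1, 34.6 and 24.4 CPM in the deleted libraries.

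Of 30 members of the BCL2 family and cell death regulators 16 had a lower mean (median -0.08), and 8 of 30 without control replicate 3 (0.10). Bid, a pro-apoptotic member, measured 27.5, 23.1, 35.4 and 17.7 CPM in the controls and 50.9, 42.1, 29.4 and 27.01 CPM in the deleted libraries (0.53, SE 0.26 on the log2 scale, 0.34 without deleted replicate 1), and Bcl2l1, which encodes BCL-XL, 72.04, 60.5, 122 and 56.9 CPM in the controls and 78.2, 83.3, 59.4 and 61.6 CPM in the deleted libraries. The groups overlapped for both. Cell cycle genes had a higher mean in 28 of 34 cases and a lower one in 6 (median 0.16), and a lower one in 13 without control replicate 3 (0.06). Bub1, a kinase of the spindle checkpoint, measured 91.2, 64.4, 42.7 and 71.3 CPM in the controls and 82.6, 104, 83.8 and 110.3 CPM in the deleted libraries (0.50, SE 0.25, 0.33 without control replicate 3). Cholesterol synthesis and uptake genes were higher in 21 of 24 cases (median 0.21, 0.26 without control replicate 3) and in 15 of 24 without deleted replicate 1 (0.10), among them Hmgcs1 at 101, 62.99, 99.9 and 55.04 CPM in the controls and 139.7, 89.6, 88.4 and 118 CPM in the deleted libraries. Glycolysis and hypoxia genes had a median of -0.04, with 18 of 24 lower, and of 0.02 with 11 of 24 lower without control replicate 3.

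Signs of handling were looked at in the immediate-early and stress genes that tissue digestion induces. Of 28 genes 26 had a lower mean (median -0.30), and 10 of 28 without control replicate 3 (0.12). Without control replicate 3 and deleted replicate 1 it was 14 of 28 (-0.03). Dusp1, a phosphatase of this response, measured 706, 1316, 3268 and 917 CPM in the controls and 1140, 1122, 621 and 804 CPM in the deleted libraries, and Fos 1296, 2227, 2661 and 1850 CPM in the controls and 1755, 1902, 981 and 1649 CPM in the deleted libraries. Control replicate 3 was the highest library for both, as it was for 10 of the 12 plotted genes of the NF-kB pathway, and the part of handling in those values was not tested. Mitochondrial transcripts took 0.699% of the counts in control replicate 3 and 1.28% to 3.15% in the other 7 libraries.

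Markers of other cells were present at unequal levels. Macrophage markers were lower in 16 of 20 cases (median -0.36) and in 17 of 20 without control replicate 3 (-0.34), but in 12 of 20 without deleted replicate 1 (-0.10). The groups did not overlap for 1 of these 20, beside 0.948% of all genes. It was Fcgr1, the high-affinity Fc receptor and an interferon-inducible gene of macrophages, at 65.6, 66.7, 109 and 91.1 CPM in the controls and 30.4, 62.9, 61.2 and 33.2 CPM in the deleted libraries (-0.83, SE 0.51 on the log2 scale). B cell markers were lower in 9 of 10 cases (median -1.20, -0.60 without control replicate 3), with the immunoglobulin gene Igkc at 46.8, 4.31, 625 and 165 CPM in the controls and 4.62, 7.86, 41.02 and 41.1 CPM in the deleted libraries (-3.15, SE 1.496, -1.61 without control replicate 3). Plasmacytoid DC markers were lower in 11 of 13 cases (median -0.79, -0.32 without control replicate 3), with 1 that did not overlap, Cd300c (2.21 to 2.63 CPM in the controls and 0 to 1.47 CPM in the deleted libraries, named after its values were seen), and cDC2 markers in 10 of 13 (-0.28, -0.06 without control replicate 3). Fibroblast markers were lower in 15 of 19 cases (median -0.16, and -0.03 with 11 of 19 without deleted replicate 1), with the proteoglycan gene Dcn at 533, 568, 714 and 414 CPM in the controls and 333, 515, 275 and 455 CPM in the deleted libraries (-0.50, SE 0.23). Endothelial genes split 7 and 7 (6 lower without control replicate 3), and neutrophil and mast cell genes 8 lower and 6 higher. The pigment genes Dct, Tyrp1, Tyr and Mlana of melanocytes were under the filter, with 0 to 6 counts a library. The melanoma list kept 9 testable genes, which summed to 122, 92.05, 131 and 88.9 CPM in the controls and 207, 77.99, 75.2 and 99.2 CPM in the deleted libraries. Its member Kit was highest in the 2 cDC1-rich libraries, at 82.2 CPM in control replicate 3 and 142.9 CPM in deleted replicate 1. Pax3, another member, measured 41.35, 45.34, 23.13 and 48 CPM in the controls and 33.25, 24.15, 24.15 and 42.35 CPM in the deleted libraries. The sum is thus a poor measure of melanoma RNA in those 2 libraries.

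**Figure D5:**
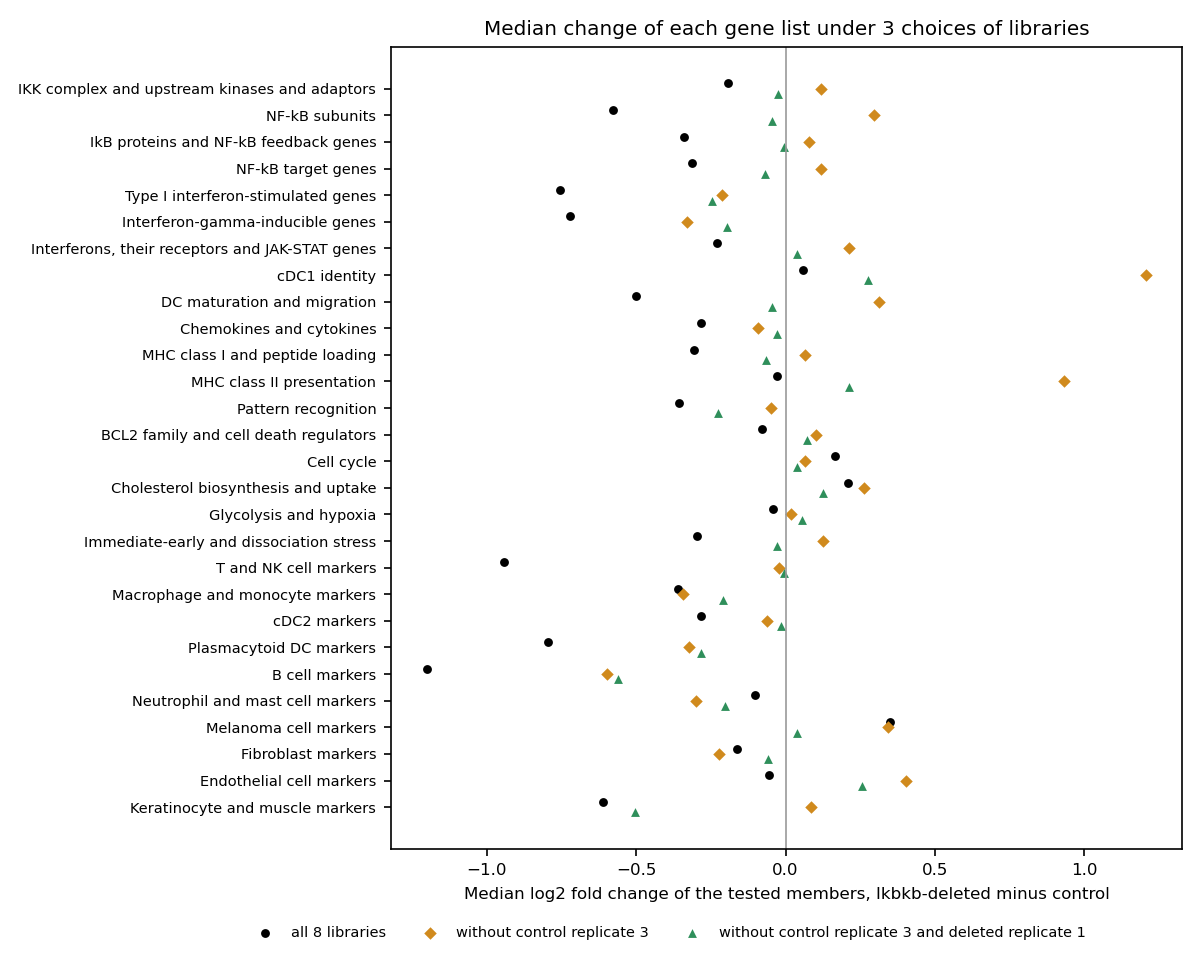
Median log2 fold change (deleted minus control) of the tested members of each of 28 gene lists. Black circles use all 8 libraries, orange diamonds leave out control replicate 3, and green triangles leave out control replicate 3 and deleted replicate 1. The type I interferon-stimulated genes lie at -0.76, -0.21 and -0.25 and the interferon-gamma-inducible genes at -0.72, -0.33 and -0.20. The NF-kB lists, DC maturation and the list of interferons, receptors and JAK-STAT genes lie above 0 without control replicate 3, and the 4 NF-kB lists between -0.07 and -0.01 when both libraries are left out.

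Whether a difference was particular to the Ikbkb deletion was tested against the Irf1 deletion, whose 8 libraries are separate. The test of the difference between both deletions called 0 of 16040 genes (0%) in edgeR, with 455 at an unadjusted p under 0.05 and a smallest adjusted p of 1, and DESeq2 called 12. The difference of log2 fold changes, Ikbkb deletion minus Irf1 deletion, was -2.27 for Kdm4b, 2.65 for Slc8a1 and -1.34 for Spon2. It was -0.13 for Ddx58, -0.97 for Ifit3, -0.93 for Gbp7 and -0.00 for B2m, each with an adjusted p of 1.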

How the data were processed

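RNA was measured in 16 libraries, of which 8 enter the comparison. The deposited file holds raw read counts for Ensembl genes, not normalized. HTSeq 0.6.1p1, STAR 2.5.3a, cutadapt 1.10 and bcl2fastq 2.17.1.14 are named, with genome mm10, per the submitters' processing notes. Strand and annotation release are not given in the sources used here, so overlapping and antisense genes cannot be told apart. Per the labels' protocols, each library started from 1000 pg of RNA and went through 12 PCR cycles as cDNA and 12 more after tagmentation. Reads carry no molecular identifiers, so counting error understates the error, and replicates differed by more than it (chi-square per gene of at least 45.35 within a group).

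Counts were fitted in R 4.3.3 with edgeR 4.0.16 (glmQLFit, glmQLFTest), all 16 libraries with a mean per group, after filterByExpr (minimum count 10, minimum total 15) and TMM scaling, with Benjamini-Hochberg adjustment and a threshold of 0.05. DESeq2 1.42.0 and limma 3.58.1 were alternatives. The script was checked on simulated data. Of the 32697 gene IDs 32684 matched a symbol in GENCODE M21 (GRCm38), the source of coordinates. Promoters came from RefSeq.

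A total of 28 gene lists held 647 genes, of which 621 were tested. The text names Ikbkb, Chuk, Ikbkg and Irf1, the 12 genes of each side described above, and per list its key members, the 2 most abundant and the 3 with the smallest p. Exceptions are named where they occur. The comparison, lists and rules were chosen with earlier results of these data known. Replicate numbers follow the order of the record and pair nothing.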

Additional observations from a re-analysis of the deposited data

Results flagged for a closer look

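Each group of 4 libraries was searched for a library far from the other 3 (Dixon's gap test at the 95% level) in the 56 genes given with a log2 fold change and in the 28 list sums, 168 groups in all. Chance marks about 1 in 20 groups, or 8.4 here, if the values are normal and the groups independent. The CPM were not log-transformed, all groups come from the same 8 libraries and some lists share genes, so 8.4 is a rough guide. In all, 31 values were marked, 22 of them in control replicate 3.

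Control replicate 3 was far above the other controls for Ikbkb (120.8 CPM), Cflar (115.2 CPM), Nfkb2 (320.0 CPM), Usp18 (440.0 CPM), Irf7 (1034 CPM), Cd80 (65.8 CPM), Il1rn (77.2 CPM), H2-Q4 (75.0 CPM) and Gzmb (452.4 CPM). The same library was far above the others in summed CPM for the IKK complex and upstream kinases and adaptors (3939), NF-kB subunits (1232), interferon-gamma-inducible genes (12000), interferons with their receptors and JAK-STAT genes (4891) and cDC1 identity (13940). It was so for DC maturation and migration (18780), chemokines and cytokines (7284), MHC class I and peptide loading (32890), MHC class II presentation (70520) and pattern recognition (2238). Sums of BCL2 family and cell death regulators (3266), T and NK cell markers (3183) and keratinocyte and muscle markers (810.5) stood apart in it too.

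In the deleted libraries replicate 2 stood above the others for Kdm4b (11.8 CPM), Isg15 (202.3 CPM), Gbp3 (94.4 CPM), Irgm2 (67.5 CPM) and B2m (3359 CPM). Deleted replicate 1 stood above them for Cldn1 (252.0 CPM) and for the pattern recognition sum (1698 CPM), and deleted replicate 4 for the neutrophil and mast cell sum (440.5 CPM). Control replicate 1 stood below the other controls for Urb1 (3.68 CPM).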

How the results depend on the processing

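No gene was called by edgeR under RLE or upper-quartile scaling, without a filter, with a filter of 5 CPM in 4 libraries, in the 8 libraries alone, with the cDC1 score as a covariate, or by limma voom. DESeq2 called 38 genes for the deletion and 12 for the difference from the Irf1 deletion, and the cause was not tested. Leaving out each library in turn gave 0 to 1 calls, the 1 being Zfp239 without Ikbkb-deleted replicate 2, and 0 to 0 for the difference from the Irf1 deletion. Of the genes given with a log2 fold change, Nfkb2 changed sign, to 0.14 without control replicate 3 (range -0.87 to 0.14). The log2 fold change of Ikbkb lay between -0.95 and -0.30 over the 8 fits that each left out 1 library. The share of genes with a lower mean ran from 48.6% without control replicate 3 to 56% without deleted replicate 3. No paired analysis was possible because the replicate numbers follow the order of the record and tie no libraries together. What depth limited was not tested, and with counts of 16478671 to 23271467 a library the libraries of 1 group differed by more than counting error.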

Other observations

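Transcripts of skeletal muscle were present in libraries described as sorted dendritic cells. The actin gene Acta1 measured 70.04, 15.1, 504 and 64.4 CPM in the controls and 124, 51.9, 34.5 and 63.4 CPM in the deleted libraries, and the troponin gene Tnnt3 13.4, 1.77, 72.3 and 4.17 CPM in the controls and 5.25, 2.42, 0.159 and 3.19 CPM in the deleted libraries. Control replicate 3 was the highest library for both.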
